A study of Mus musculus with 3 samples.

Results

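The leukocyte integrin subunits described here are the 10 genes Itga1, Itga2, Itga4, Itgae, Itgal, Itgam, Itgax, Itgb1, Itgb2 and Itgb7. They were picked by symbol from the 25906 genes in the files. Their mRNA was counted in natural killer (NK) cells, sorted as live NK1.1+ NKp46+ cells from lung and blood of female wild-type C57BL/6 mice, 9 weeks old. The 3 groups of mice were naive, or had received 100000 PyMT mammary tumor cells intravenously 6 h or 14 days earlier (the number in the labels, where a figure legend of the study has another), and each was sequenced in 1 droplet library that held lung and blood cells together. Cells were assigned to lung by the hashtag B0304 and to blood by B0306, the order in which tissues and tags are named in the methods, when at least 90% of their tag counts came from 1 tag.

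This left 3676 cells from naive lung, 4367 from naive blood, 4680 from 6 h lung, 2746 from 6 h blood, 3575 from 14-day lung and 2069 from 14-day blood, with 16936897 to 35922737 UMIs (unique molecular identifiers, 1 per captured transcript) per group and medians of 5909 to 7524 UMIs per cell. The 8 NK marker genes summed to 15600 to 22980 CPM (UMIs of a gene per 1000000 UMIs of the group) and all 8 were detected. Between libraries, 7 to 16 cell barcodes were shared. T cell markers, 3 of 8 of them under 5 CPM everywhere, summed to 187 to 295 CPM, dendritic markers to 50.6 CPM in 14-day lung against at most 4.76 CPM in the other groups, and red cell markers to 89.0 CPM in 14-day lung against at most 0.362 CPM, where 0.0283% of cells held 2 or more of them. Cells of the several mice of a group share a library and carry no mark of the mouse, so each library is 1 sample. The 95% intervals below therefore cover counting error only, and no test between time points was possible. Lungs were digested with collagenase and blood was not, so tissue and preparation cannot be told apart.

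Integrins are receptors made of an alpha and a beta subunit, which assemble before they reach the cell surface. The beta2 family (Itgal, Itgam or Itgax with Itgb2) binds ICAMs and complement fragments and holds leukocytes to endothelium and target cells. The beta1 family (Itga1, Itga2 or Itga4 with Itgb1) binds collagen, laminin, fibronectin and VCAM-1, and the beta7 family (Itga4 or Itgae with Itgb7) binds MAdCAM-1 and E-cadherin. In mouse NK cells CD49b, the product of Itga2, is a lineage marker, CD11b, the product of Itgam, is acquired with maturation, and CD49a, the product of Itga1, marks tissue-resident NK cells and type 1 innate lymphoid cells (ILC1).

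RefSeq promoter windows on GRCm38.p6 were at hand for 7 of the 10 members. The 250 bases before the start are shown for Itga1, Itga2 and Itgb1. In lung at 14 days Itga1 had the largest increase and Itga2 the largest decrease of the members. Itgb1 was higher there by less than 1.5-fold, and Itga4 and Itgam, which also had windows, were lower by more than that. Itga1 and Itga2 lie next to each other on the minus strand of chromosome 13. Capitals mark matches on either strand to AGGAAG (an ETS core) and GTCTG (a SMAD box). Itga1 at chr13:115101965-115102214, Itga2 at chr13:114932101-114932350 and Itgb1, on the plus strand, at chr8:128685404-128685653 read 5′ to 3′ as follows.
Itga1: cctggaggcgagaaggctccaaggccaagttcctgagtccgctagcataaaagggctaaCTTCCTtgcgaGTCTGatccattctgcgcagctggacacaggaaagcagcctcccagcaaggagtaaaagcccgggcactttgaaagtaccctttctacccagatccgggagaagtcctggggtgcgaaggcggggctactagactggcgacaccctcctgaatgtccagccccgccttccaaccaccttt
Itga2: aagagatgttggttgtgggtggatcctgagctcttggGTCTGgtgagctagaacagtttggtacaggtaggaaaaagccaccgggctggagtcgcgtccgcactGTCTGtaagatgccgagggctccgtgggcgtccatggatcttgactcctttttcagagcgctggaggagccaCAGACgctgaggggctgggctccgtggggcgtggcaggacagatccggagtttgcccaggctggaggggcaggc
Itgb1: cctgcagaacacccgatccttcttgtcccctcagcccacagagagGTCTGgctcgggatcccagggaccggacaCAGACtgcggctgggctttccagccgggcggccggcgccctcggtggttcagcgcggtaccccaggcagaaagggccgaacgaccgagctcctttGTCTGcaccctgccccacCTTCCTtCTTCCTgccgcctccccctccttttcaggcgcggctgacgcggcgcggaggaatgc
The ETS letters occurred 1 time before Itga1, 2 times before Itgb1 and 0 times before Itga2, and 29.5% of 32851 windows of this length held them. The SMAD letters occurred 1, 3 and 3 times before Itga1, Itgb1 and Itga2, and 42.2% of all windows held them. RUNX (TGTGGT, in 14.0% of all windows), T-box (AGGTGT, 11.8%) and AP-1 (TGANTCA, 6.75%) letters were not matched in these 3 windows, and no motif overlapped another. The Itgb1 window was the richest in G and C of the 7, at 68.0% with 21 CpG dinucleotides, against medians of 52.4% and 6 over all windows. The matches describe letters and say nothing of factor binding.

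The balance of the summed beta UMIs was another in 14-day lung than in the other 5 groups. In naive lung Itgb2 held 45.0% of the UMIs of the 3 beta genes and Itgb1 41.4%, and in 14-day lung Itgb1 held 60.5% and Itgb2 27.1%. In the other 5 groups Itgb1 stayed between 37.6% and 43.9% and Itgb2 between 42.5% and 48.1%. Blood cells of the same 14-day library had 37.6% Itgb1 and 48.1% Itgb2, the lowest and the highest of these values. The sum of all 10 members was 4153 CPM in naive lung, 3700 CPM in 6 h lung and 2891 CPM in 14-day lung, and 4896, 4214 and 3739 CPM in blood.

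**Figure D1:**
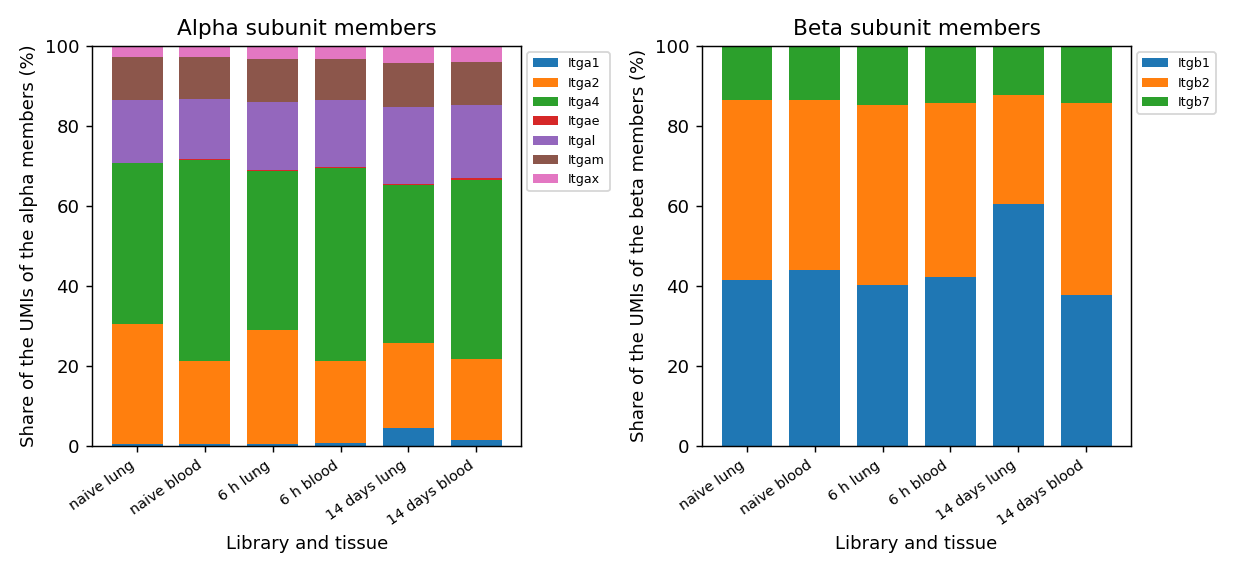
Shares of the UMIs of the 7 alpha members (left) and the 3 beta members (right), in percent, as stacked bars for each library and tissue. Itgb1 takes 60.5% of the beta UMIs in 14-day lung and at most 43.9% in any other group, and Itga1 takes 4.29% of the alpha UMIs there against 0.514% in naive lung.

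Itga4 had the most UMIs of the members in 5 of the 6 groups, and Itgb1 had the most in 14-day lung, at 749.8 CPM against 649 CPM for Itga4. Itgae was the lowest in every group. In the order of levels, Itgb2, Itga2 and Itgb1 in 6 h blood, Itga2 and Itgb1 in 14-day blood, and Itgax and Itga1 in 14-day lung had overlapping intervals, and all other neighbours were apart. A 3′ UMI count gives 1 tag per molecule whatever the length of the transcript, but whether reads from introns were counted is not stated. Levels of different genes are therefore compared only as an order of UMIs, which intron reads could also change. Shares or ratios between genes are compared only by how they differ from group to group.

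**Figure D2:**
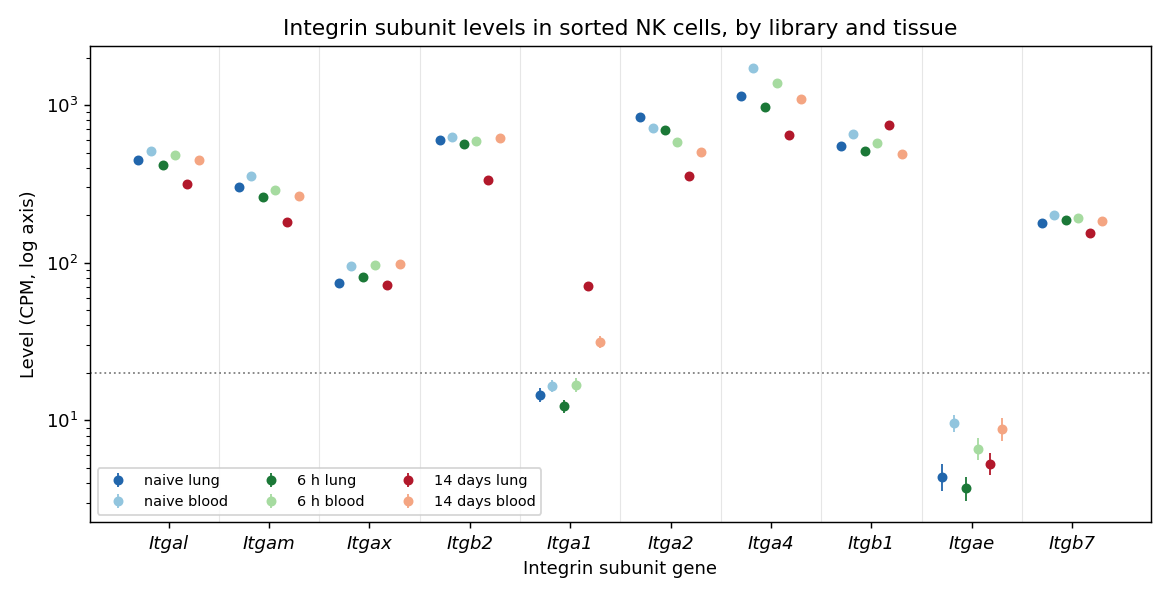
Level of each member in CPM on a log axis, in 6 groups of library and tissue; points are summed counts over cells, bars exact 95% Poisson intervals, many smaller than the point, and the dotted line marks 20 CPM. The 14-day lung points of Itgal, Itgam, Itgb2, Itga2, Itga4 and Itgb7 are the lowest of their gene, those of Itga1 and Itgb1 the highest. That of Itgax is also the lowest, with an interval that overlaps the one of naive lung.

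In lung at 14 days over naive, 5 of the 9 members with at least 20 CPM in either group were at least 1.5-fold apart, 1 higher and 4 lower, where 15.6% of all 6482 genes were. Itga1 passed the 20 CPM level only through the 14-day groups. The median log2 ratio of the 9 was -0.50, against -0.21 over all genes tested. In blood 2 of 9 members, 1 higher and 1 lower, were 1.5-fold apart (3.47% of all genes), with a median of -0.18 against -0.17. With size factors by median of ratios, or with totals without mt- and ribosomal protein genes, 2 members were higher in lung (Itga1 and Itgb1) and 3 lower (Itga2, Itga4 and Itgb2), where 12.0% of all genes were 1.5-fold apart under either scaling, and in blood 1 was higher (Itga1) and 0 lower, where 2.41% and 2.29% of all genes were. At 6 h no member passed this size in lung (0 of 8, with 0.422% of all genes) or in blood (0 of 8, with 0.368%), and the medians were -0.11 and -0.14 against -0.08 and -0.06 over all genes. The 14-day and 6 h ratios share the naive groups. At 14 days the log2 ratios of all genes with 50 CPM or more centred on -0.25 in lung and on -0.20 in blood. These medians depended on the genomic span of the gene: over 5 classes of equal size, from the shortest to the longest span, they went from 0.10 to -0.42 in lung and from 0.15 to -0.43 in blood. Itga1 and Itga2 lie in span class 5, Itga4, Itgam and Itgae in class 4, Itgal, Itgb1 and Itgb2 in class 3, and Itgax and Itgb7 in class 2. The part of span in the members' ratios was not tested, and ratios relative to the median of the member's own span class are given below where they bring a gene over or under 1.5-fold. With that subtraction 3 members were 1.5-fold apart in lung and 1 in blood, against 9.89% and 1.5% of all genes.

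**Figure D3:**
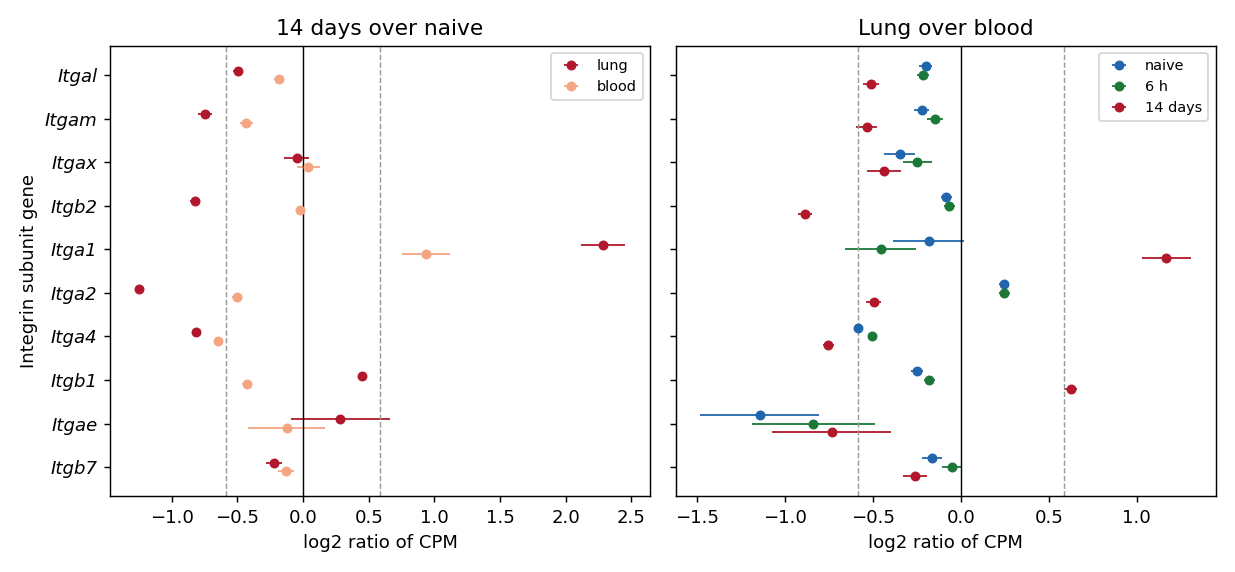
Log2 ratios of CPM with exact 95% intervals (counting error only), 14 days over naive in lung and blood (left) and lung over blood in each library (right); dashed lines mark 1.5-fold. At 14 days Itgb2 lies below 0 in lung and Itgb1 above it, while in blood Itgb2 lies at 0 and Itgb1 below it, and the lung over blood ratios of Itga1, Itga2 and Itgb1 at 14 days lie on the other side of 0 from those at 6 h.

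Itgb2 (ENSMUSG00000000290, chromosome 10 from 77530252 to 77565708 of GRCm38) encodes CD18, the beta chain that all members of its family need. It stood at 596 CPM in naive lung, 631 in naive blood, 567 in 6 h lung, 594 in 6 h blood, 336.5 (95% interval 329.7 to 343.3) in 14-day lung and 622 (95% interval 610 to 634) in 14-day blood. Only the 14-day lung group was low. The log2 ratio at 14 days was -0.82 (95% interval -0.86 to -0.79) in lung and -0.02 (95% interval -0.06 to 0.01) in blood. After each cell was thinned to 3000 UMIs, 80.8% (95% interval 79.4 to 82.0) of naive lung cells and 56.6% (95% interval 54.9 to 58.2) of 14-day lung cells had at least 1 Itgb2 UMI, against 83.5% and 81.8% in blood, and before thinning the lung shares were 94.4% and 78.8%. Free RNA could supply a UMI to at most 7.68% of naive and 1.52% of 14-day cells. Relative to its span class the lung ratio was -0.51, which is under 1.5-fold.

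Among its alpha partners, Itgal (ENSMUSG00000030830, chromosome 7 from 127296260 to 127335138), which encodes CD11a of the ICAM receptor LFA-1, moved less. Its levels were 446, 512, 415 and 482 CPM in naive lung, naive blood, 6 h lung and 6 h blood, and 316.5 and 451 CPM in 14-day lung and blood. With a 14-day ratio of -0.50 for lung cells (95% interval -0.54 to -0.45) and -0.18 for blood cells (95% interval -0.22 to -0.14) it was under 1.5-fold in both.

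Itgam (ENSMUSG00000030786, chromosome 7 from 128062640 to 128118491) encodes CD11b of the complement receptor Mac-1. It was measured at 303.9 CPM in naive lung, 355 in naive blood, 262 in 6 h lung, 290 in 6 h blood, 181.5 in 14-day lung and 263 in 14-day blood. Lung was below blood in each library, and the 14-day lung value was the lowest. The ratio at 14 days was -0.74 (95% interval -0.80 to -0.69) in lung and -0.43 (95% interval -0.48 to -0.38) in blood, and -0.38 in lung relative to its span class, which is under 1.5-fold. Gm49368, which overlaps Itgam on the same strand, was counted at 10.0 to 19.2 CPM.

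Itgax (ENSMUSG00000030789, chromosome 7 from 128129547 to 128150657), the CD11c gene, was at 74.6, 81.3 and 72.1 CPM in naive, 6 h and 14-day lung and at 94.9, 96.4 and 97.5 CPM in blood. The ratios at 14 days, -0.05 (95% interval -0.14 to 0.04) in lung and 0.04 (95% interval -0.05 to 0.13) in blood, had intervals that include 0. Dendritic cells carry CD11c, and cells with 2 or more genes of the dendritic list made up 0.481% of 14-day lung cells. Nearly all UMIs of this list there came from H2-Aa, H2-Ab1 and Cd74, and whether these cells were dendritic was not tested. Without cells that carried markers of other cell types the lung ratio of Itgax was -0.01 and that of Itgam -0.69. In blood the 8 myeloid markers summed to 46.3 CPM in naive and 137.2 CPM in 14-day cells. Nearly all of this rise was in Lyz2, which encodes lysozyme, at 0.60 and 89.3 CPM. Fcgr3, the largest part of the naive sum, was at 40.7 and 42.2 CPM, and each other marker was under 5 CPM. Cells with 2 or more myeloid markers made up 0.14% of naive and 0.242% of 14-day blood cells. Without the cells with markers of other types the blood ratios were -0.39 for Itgam and -0.01 for Itgax, and the part of myeloid cells in these levels was not tested.

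Itgb1 (ENSMUSG00000025809, chromosome 8 from 128685654 to 128733200) encodes CD29, the shared beta chain of the collagen, laminin and fibronectin receptors. It was at 549 CPM in naive lung, 652 in naive blood, 508 in 6 h lung, 574 in 6 h blood, 749.8 (95% interval 739.7 to 760.0) in 14-day lung and 486 (95% interval 475 to 496) in 14-day blood. The 14-day lung group was the highest and the 14-day blood group the lowest of the 6. Its log2 ratio at 14 days was 0.45 (95% interval 0.42 to 0.48) in lung and -0.42 (95% interval -0.46 to -0.39) in blood, both under 1.5-fold, and 0.77 in lung relative to its span class, which is over 1.5-fold. In thinned cells, 75.3% of naive and 81.9% of 14-day lung cells had an Itgb1 UMI, and 81.5% and 71.8% in blood. The variance of Itgb1 UMIs over cells divided by the mean was 1.32 in naive lung and 1.85 in 14-day lung, against 1.29 and 1.36 in blood, and for Itgb2 it was 1.22 and 1.57 in lung and 1.19 and 1.24 in blood, so both beta chains were spread more unevenly over cells in 14-day lung.

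Itga1 (ENSMUSG00000042284, chromosome 13 from 114953096 to 115101964), which encodes the collagen receptor chain CD49a, had the largest ratio of the 10 members. It stood at 14.5 CPM (95% interval 13.0 to 16.2) in naive lung, 16.5 in naive blood, 12.2 in 6 h lung, 16.8 in 6 h blood, 70.8 (95% interval 67.7 to 74.0) in 14-day lung and 31.5 (95% interval 28.9 to 34.3) in 14-day blood. Both 14-day groups were above the other 4, and lung was above blood only at 14 days. The log2 ratio was 2.29 (95% interval 2.12 to 2.45) in lung and 0.94 (95% interval 0.76 to 1.12) in blood. Of thinned lung cells 3.70% (95% interval 3.11 to 4.38) carried an Itga1 UMI in naive and 14.4% (95% interval 13.3 to 15.6) in 14-day mice, and 3.87% and 5.82% of blood cells did, while free RNA could supply one to at most 0.107% of cells. Pelo, which lies within Itga1 on the same strand, was at 5.75 to 11.3 CPM.

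At 14 days the Itga1 signal was split differently between cells with and without ILC1 markers in lung and in blood. The 6 ILC1 marker genes (Cxcr6, Tmem176a, Tmem176b, Il7r, Cd200r1 and Tnfsf10) summed to 41.5 CPM in naive and 105.5 CPM in 14-day lung, and to 35.3 and 84.1 CPM in blood. Each of them was higher at 14 days in both tissues, but by unlike amounts. Cxcr6 was at 3.45 and 4.72 CPM in naive and 14-day lung and at 2.57 and 15.3 CPM in blood. Tnfsf10 was at 5.79 and 35.2 CPM in lung and at 9.37 and 13.9 CPM in blood. Whether the markers label the same kind of cell in both tissues was not tested. In thinned cells without a UMI of any of these markers, Itga1 was at 13.0 CPM in naive and 62.3 CPM in 14-day lung (log2 ratio 2.26), and at 14.8 and 12.8 CPM in naive and 14-day blood. When cells with 2 or more of these markers were left out of the full counts, the 14-day ratio of Itga1 was 2.43 in lung and 0.10 in blood, so that the blood difference was no longer 1.5-fold. The 66 blood cells with 2 or more ILC1 markers at 14 days, 3.20% of the thinned cells, held 399 CPM of Itga1 against 17.4 CPM in the other blood cells (log2 ratio 4.52, 95% interval 4.08 to 4.96). The 91 such lung cells, 2.57%, held 223 CPM against 69.5 CPM (1.68, 95% interval 1.28 to 2.06). These cells had little Itgam, at 30.3 CPM in blood and 47.6 CPM in lung against 281.6 and 201.9 CPM in the other cells, and little Itga2, at 161.6 and 91.6 CPM against 491.4 and 367.8 CPM. In each naive and 6 h group fewer than 50 thinned cells carried 2 of these markers, and no level is given for them.

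Itga2 (ENSMUSG00000015533, chromosome 13 from 114833081 to 114932100), the gene of the NK marker CD49b and, like Itga1, of a collagen receptor chain, had the largest decrease. From naive through 6 h to 14 days it was at 844, 693 and 356 CPM in lung and at 711, 584 and 501 CPM in blood. Lung was above blood in the naive and 6 h libraries and below it at 14 days. The 14-day ratio was -1.25 (95% interval -1.28 to -1.21) in lung and -0.50 (95% interval -0.54 to -0.47) in blood. Itga2 UMIs were found in 81.6% of thinned naive lung cells and 54.5% of 14-day lung cells, and in 79.0% and 68.1% of blood cells.

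Itga4 (ENSMUSG00000027009, chromosome 2 from 79255426 to 79333123) encodes CD49d, which pairs with Itgb1 to bind VCAM-1 and with Itgb7 to bind MAdCAM-1. Levels were 1141, 972 and 649 CPM in naive, 6 h and 14-day lung and 1713, 1378 and 1094 CPM in blood, so lung was below blood in each library. The 14-day ratios were -0.81 (95% interval -0.84 to -0.79) in lung and -0.65 (95% interval -0.67 to -0.62) in blood. Relative to the span class they were -0.45 and -0.31 and no longer 1.5-fold. For each Itgb1 UMI there were 2.08 Itga4 UMIs in naive lung and 0.866 in 14-day lung, against 2.63 and 2.25 in blood. Cerkl, which overlaps Itga4 on the opposite strand, was at 12.6 to 27.1 CPM.

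Itgb7 and Itgae, with Itga4, make up the beta7 family. Itgb7 (ENSMUSG00000001281, chromosome 15 from 102215995 to 102231944), the partner of Itga4 and Itgae, was at 180, 186 and 154 CPM in naive, 6 h and 14-day lung and at 201.5, 193 and 184 CPM in blood. Its 14-day ratio was -0.22 (95% interval -0.28 to -0.16) in lung and -0.13 (95% interval -0.19 to -0.07) in blood. Itgae (ENSMUSG00000005947, chromosome 11 from 73090583 to 73147446), which encodes CD103, the chain of the E-cadherin receptor found on intraepithelial lymphocytes, was at 4.35, 3.70 and 5.29 CPM in lung and at 9.57, 6.61 and 8.80 CPM in blood, under 20 CPM in every group. Lung was below blood in each library. The 14-day ratio was 0.28 (95% interval -0.09 to 0.66) in lung, so that no change was detectable at this depth. Only 1.17% to 1.78% of thinned cells of naive and 14-day lung carried an Itgae UMI, where free RNA could give at most 0.0394%. Haspin lies opposite to Itgae within its span and was at 10.3 to 28.2 CPM, again with lung below blood, and whether strand was used in counting is not given in the sources used here.

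Lung was then set against blood within each library, which holds sequencing and time constant. In the naive library 1 of 8 members was 1.5-fold apart (9.52% of all genes), Itga4 at -0.59 (95% interval -0.61 to -0.56), which lies at the edge of 1.5-fold. In the 6 h library 0 of 8 were (8.61% of all genes). In the 14-day library 4 of 9 were (9.00% of all genes): Itga1 at 1.17 (95% interval 1.03 to 1.31) and Itgb1 at 0.63 (95% interval 0.59 to 0.66) were higher in lung, and Itgb2 at -0.89 (95% interval -0.93 to -0.85) and Itga4 at -0.75 (95% interval -0.78 to -0.72) were lower. The members' medians were -0.21, -0.16 and -0.49 in the naive, 6 h and 14-day libraries, against -0.09, -0.09 and -0.10 over all genes tested. Itga2 went from 0.25 (95% interval 0.22 to 0.28) in the naive to -0.49 (95% interval -0.54 to -0.45) in the 14-day library.

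Lung and blood were also compared in 1 fit over the 3 libraries, with the library as a block, by edgeR's quasi-likelihood test with Benjamini-Hochberg adjustment. The libraries are of different time points, so a tissue difference that changes with time adds to the spread of this fit, which has 2 residual degrees of freedom. Of the 9 members tested, 2 passed an adjusted p of 0.05, where 24.2% of all 6844 genes did. Itga4 was lower in lung in 3 of 3 libraries, by a log2 ratio of -0.53 (adjusted p = 0.0113), and so was Itgax, by -0.26 (adjusted p = 0.0269). Both calls were lost without the naive or without the 6 h library. Without the naive library the adjusted p of Itga4 was 0.127 and that of Itgax 0.199, where 4.15% of all genes passed. Without the 6 h library they were 0.117 and 0.135, where 4.09% of all genes passed. Without the 14-day library 7 of 9 members passed (61.0% of all genes), with Itga2, Itga4, Itgal, Itgam, Itgax, Itga1 and Itgb1 among them. Each refit without 1 library has fewer residual degrees of freedom than the main fit. The naive and 6 h libraries left in this one were much alike, with 0.422% of all genes in lung and 0.368% in blood 1.5-fold apart. Its calls therefore say nothing of the spread between mice. In CPM, Itgal, Itgam, Itgb2 and Itgb7 were also lower in lung in 3 of 3 libraries, with fitted log2 ratios of -0.23, -0.22, -0.26 and -0.075. Their adjusted p over the 3 libraries were 0.0851, 0.115, 0.318 and 0.36. For Itgb2 and Itgb7 the order of tissues at 6 h depended on the scaling. In CPM their 6 h ratios were -0.066 and -0.051, the latter with a counting interval from -0.107 to 0.005. Relative to the median of genes with 50 CPM or more they were 0.005 and 0.021, while Itgal and Itgam stayed negative (-0.143 and -0.076). In the naive library Itgb2 was at -0.013 relative to this median, and Itgb7 at -0.097. Itga1, Itga2 and Itgb1, whose lung over blood ratios changed sign between libraries, had adjusted p of 0.557, 0.713 and 0.625.

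Levels were next compared within classes of thinned cells, set by UMIs of genes that are not members: Klrg1 and Cx3cr1, both marks of terminal maturation, Cd27 without Klrg1 and Cx3cr1, a mark of immature NK cells, and Pmepa1, a gene induced by TGF-beta. Cells of a class share a library, so these are values of 1 library each. The Pmepa1 class was 5.32% of naive, 7.61% of 6 h and 27.5% of 14-day lung cells, and at most 1.98% of blood cells. The Klrg1 and Cx3cr1 class went from 10.5% to 6.62% in lung and the Cd27 class from 9.14% to 10.9%.

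In Klrg1 and Cx3cr1 cells of the lung both beta chains differed by less than 1.5-fold between naive and 14 days. Itgb2 was at 743.6 CPM in naive and 698 CPM in 14-day cells (log2 ratio -0.09) and Itgb1 at 621 and 534 CPM (-0.22). Itga2, at 815 and 432 CPM, was lower in this class too (-0.92, 95% interval -1.11 to -0.73). In Cd27 cells Itgb2 was at 421 and 201 CPM (-1.07), Itgb1 at 529.5 and 916 CPM (0.79), Itga1 at 29.5 and 122 CPM (2.05) and Itgam at 227 and 97.8 CPM (-1.21). The Cd27 cells of blood had 489 CPM of Itgb2 in naive and 486 CPM in 14-day mice, 678 and 480 CPM of Itgb1, and 25.0 and 132.5 CPM of Itga1. Markers of ILC1 were not removed from this class.

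Pmepa1 cells differed from the other lung cells by less than 1.5-fold in both beta chains in naive mice and by more at 14 days. In naive lung they held 530.5 CPM of Itgb2 against 608 CPM in cells without Pmepa1, and 551.5 against 546 CPM of Itgb1. In 14-day lung they held 171.5 against 429 CPM of Itgb2 (log2 ratio -1.33, 95% interval -1.46 to -1.19), 1071 against 646 CPM of Itgb1 (0.73, 95% interval 0.66 to 0.79) and 137 against 49.4 CPM of Itga1 (1.47, 95% interval 1.26 to 1.68). Itgax did not separate them, at 67.4 and 67.5 CPM. In the thinned cells without a Pmepa1 UMI the 14-day ratios in lung were -0.50 for Itgb2, 0.24 for Itgb1, 1.53 for Itga1 and -1.02 for Itga2. Some cells of this class had a Pmepa1 UMI before thinning. Before thinning, a Pmepa1 UMI was found in 1486 of 3575 cells of 14-day lung. In naive lung it was 347 of 3676 cells and in 14-day blood 48 of 2069. All cells with a Pmepa1 UMI were then left out of the full counts, a far larger part of 14-day lung than of these 2 groups. In the remaining lung cells 2 members, Itga1 (1.11) and Itga2 (-0.91), were 1.5-fold apart between 14 days and naive, where 10.6% of all genes were. Itgb1 was at 0.09 and Itgb2 at -0.35. Between lung and blood at 14 days 0 of the members were 1.5-fold apart, where 5.53% of all genes were.

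**Figure D4:**
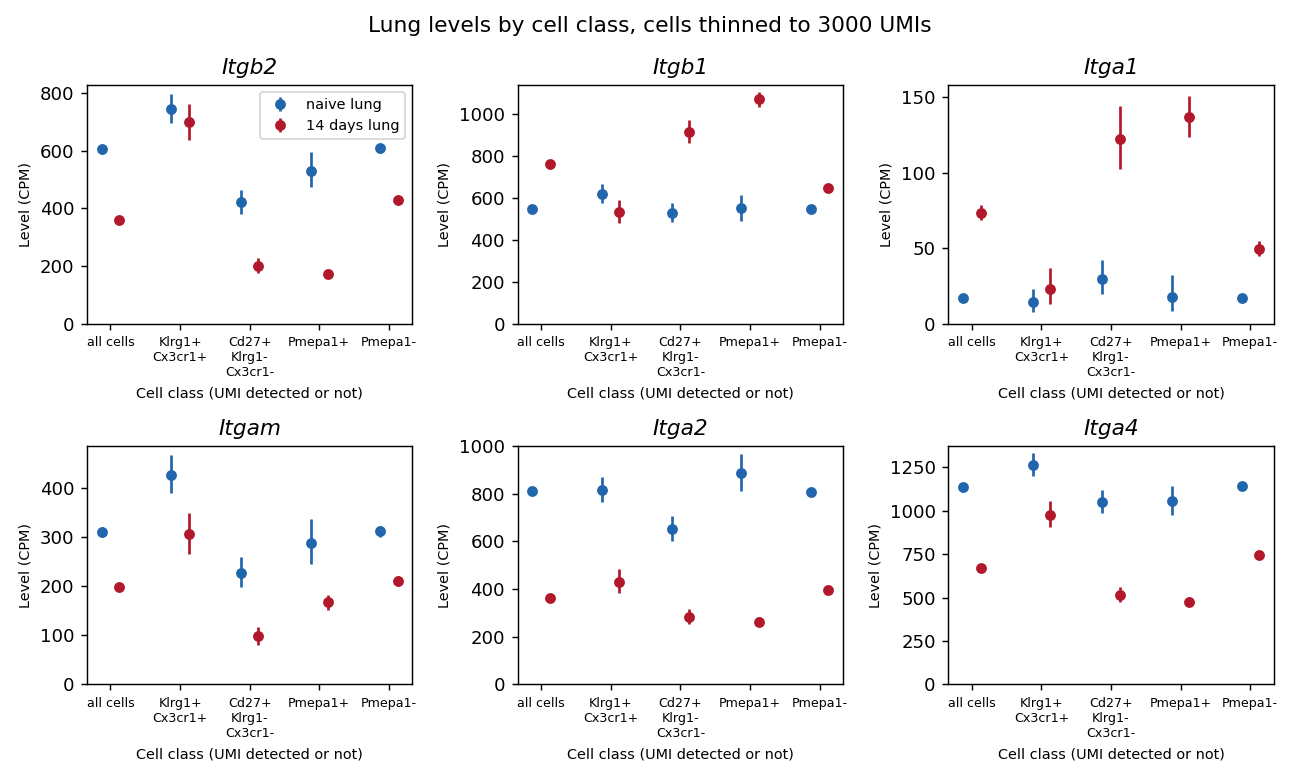
Levels in CPM of 6 members in naive and 14-day lung cells thinned to 3000 UMIs, for all cells and for classes set by detected UMIs; bars are exact 95% Poisson intervals. In cells with Klrg1 and Cx3cr1, naive and 14-day cells lie close together for Itgb2 (743.6 and 698 CPM) and Itgb1 (621 and 534 CPM), and in cells with Cd27 or Pmepa1 they lie far apart.

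Partner subunits were looked for in the same cells. Of 8 alpha and beta pairs, the share of thinned cells with both was close to the product of the single shares in most groups. The exceptions with common genes were in 14-day lung, where Itgal and Itgb2 were found together in 37.3% of cells against a product of 33.9%, and Itgam and Itgb2 in 25.0% against 21.9%. There Itgb2 was found in 62.2% of cells with Itgal and 48.2% of cells without it, while in naive lung the shares were 80.9% and 80.3%. Itgb1 was found in 87.3% of 14-day lung cells with Itga1 and 81.0% of those without. In these 511 cells with Itga1, Itgb1 was at 1041 CPM against 716 CPM in the rest and Itgb2 at 201 against 385 CPM, and 47.4% (95% interval 43.0 to 51.8) had a Pmepa1 UMI against 24.2% (95% interval 22.7 to 25.8). In 14-day blood, 120 cells with Itga1 had 419 CPM of Itgb1 against 500.4 CPM and 639 against 647 CPM of Itgb2, and Pmepa1 in 1.67% against 1.29%.

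Genes that act on integrins or link them to the cytoskeleton were followed as a list of 41, of which 36 had 20 CPM or more. The list mixes activators with inhibitors such as Sharpin and Itgb1bp1, so its counts and medians give no direction of integrin activity. In lung at 14 days 1 was at least 1.5-fold higher and 9 were lower than in naive cells, with a median log2 ratio of -0.34, against -0.21 over all genes tested, of which 15.6% were 1.5-fold apart. In blood 0 were higher and 2 lower (Dock2 and Ripor2), with a median of -0.23 against -0.17 and with 3.47% of all genes 1.5-fold apart. The ratios of this list were not set relative to span classes or recomputed under other scalings. At 6 h none of the 36 differed by 1.5-fold in lung or blood, where 0.422% and 0.368% of all genes did. Rasgrp2, the exchange factor that switches on Rap1 upstream of beta2 integrins, was at 100.3 CPM in naive and 46.7 CPM in 14-day lung (-1.10, 95% interval -1.20 to -1.01), and at 107.5 and 93.9 CPM in blood. Dock2, a Rac exchange factor and the most abundant gene of the list in naive lung, was at 1664 and 962 CPM (-0.79). Flna, which encodes filamin A, an actin linker of beta tails, was at 242 and 144 CPM in lung (-0.75) and 237 and 240 CPM in blood. Apbb1ip, the Rap1 adaptor RIAM, was at 509 and 306.5 CPM (-0.73), Ripor2 at 1262 and 768 CPM (-0.72), and the adaptor gene Fyb at 710.3 and 438 CPM (-0.70). Tln1 and Fermt3, talin and kindlin-3, had ratios of -0.51 and -0.03, and Parvg, a parvin, was the gene that was higher, at 24.5 and 37.6 CPM (0.62). Tln1, Fermt3 and Parvg were picked after their values were seen.

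Of 17 other integrin subunits, 3 had 20 CPM or more. Itgav, a chain of vitronectin receptors, was the highest, at 110 and 111 CPM in naive and 14-day lung, and Itga6, a laminin receptor chain, was at 41.9 and 24.8 CPM (-0.76, 95% interval -0.90 to -0.61). Of 11 ligand genes, Icam1, Icam2 and Spp1 reached 20 CPM. Icam1, the ligand of LFA-1 and Mac-1, was at 81.3 CPM in naive, 121.7 in 6 h and 98.6 in 14-day lung, and at 95.8, 108.7 and 94.2 CPM in blood. Spp1, which encodes osteopontin, was at 14.9 and 25.1 CPM in naive and 14-day lung (0.75, 95% interval 0.57 to 0.94) and 18.3 and 28.8 CPM in blood (0.65). The counterparts of these integrins on endothelium are outside these sorted cells.

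Likeness over the 6 groups was measured by the root mean square distance of centred log2(CPM + 1). For Itga1, Itgam, Itga2 and Itgae, the genes most alike were found among 1130 genes that varied and reached 20 CPM in a group. They were 2900026A02Rik, Tnfsf10 and Zfp1 for Itga1 (0.148, 0.179 and 0.236), Snx10, Gsap and Cyria for Itgam (0.032, 0.0418 and 0.0451), Klhl4, Antxr2 and Gpd2 for Itga2 (0.0894, 0.0949 and 0.0956), and Pigl, Cln3 and Ppt1 for Itgae (0.116, 0.118 and 0.137). Tnfsf10, an ILC1 marker, was at 5.79 CPM in naive and 35.2 CPM in 14-day lung, and at 9.37 and 13.9 CPM in blood. 2900026A02Rik, Tnfsf10 and Zfp1 reached 20 CPM only in 14-day lung, the group where Itga1 was highest. Itgae had at most 287 UMIs in any group, so its distances rest on few counts. A nearest gene always exists, and whether these distances are smaller than by chance was not tested.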

How the data were processed

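Single-cell 3′ RNA sequencing was analysed from 3 libraries of sorted NK cells. The values the authors deposited are raw counts of UMIs for each gene and hashtag in every barcode, from Cell Ranger on GRCm38.p6; the submitters' processing notes also name Seurat 5.0, which was not used here. Barcodes with 800 to 5000 genes and at most 6% mt- counts were kept, and 342, 158 and 141 barcodes of the naive, 6 h and 14-day libraries with neither tag at 90% were left out. Doublets within a tissue were not called, and cells with the most UMIs were left out in an alternative. Gene positions come from GENCODE M21, which held 98.3% of the gene IDs in the files.

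Counts were summed per library and tissue and divided by all UMIs of the group (CPM). CPM have exact Poisson intervals, shares of cells exact binomial intervals, and log2 ratios exact intervals conditional on the summed counts, all at 95% and for counting error only. Naive, 6 h and 14-day cells were not tested against each other, since each library is 1 sample. Lung and blood were also compared across all genes by edgeR's quasi-likelihood test, with TMM normalization and the library as a block, a fit added after seeing the data. A gene counts as different at 1.5-fold or more, if the higher group reaches 20 CPM. For shares and classes each cell was thinned to 3000 UMIs, leaving 2063 to 4640 cells per group. Free RNA was limited to 3.02%, 3.96% and 0.729% of the counts in the naive, 6 h and 14-day libraries, from the marker of another cell type with the lowest ratio between cells and barcodes of at most 100 counts. The rule for named genes took all 10 members, from the 3 accompanying lists up to 8 genes with the largest differences in lung at 14 days and the highest gene, and 3 genes most alike in pattern to each of 4 members. The members and lists were chosen with earlier results of these data known.

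The interval code was checked on simulated counts that hold counting noise only. Alternatives changed the filters, the tags, the totals, the depth, free RNA and the cells left out. Analyses used Python 3.11.15, NumPy 2.4.6, pandas 2.3.3, SciPy 1.17.1, R 4.3.3 and edgeR 4.0.16.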

Additional observations from a re-analysis of the deposited data

Results flagged for a closer look

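Itgb1 and Itga2 had ratios of opposite direction in groups under the same contrast, with counting intervals on either side of 0, also after subtraction of the median of all genes. The differences were not tested, since each group is 1 library. For Itgb1 the log2 ratio of 14 days over naive was 0.45 in lung and -0.42 in blood, a difference of 0.88, and its lung over blood ratio was higher at 14 days than in the naive library by the same 0.88 and than at 6 h by 0.80. For Itga2 the lung over blood ratio changed by -0.74 from the naive to the 14-day library and by -0.74 from the 6 h to the 14-day library. The naive and 14-day values of a gene enter more than 1 of these differences.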

How the results depend on the processing

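Of the 12 member ratios that were 1.5-fold or more, over 7 comparisons, none reversed under 14 alternatives, and 143 of 168 values stayed 1.5-fold in the same direction. The single member called in naive lung over blood, Itga4, lies at the limit. The count went from 1 to 0 with 1000 to 4000 genes and 4% mt- counts, 99% of tag counts, median-of-ratios size factors and thinned cells. It also did with means of CPM over cells, without cells with markers of other cell types and without the 5% of cells with most UMIs. Of all genes, 9.18% to 10.2% were 1.5-fold apart in these settings, against 9.52% in the main one. In blood at 14 days the count went from 2 (3.47% of all genes) to 1 with totals without mt- and ribosomal protein genes (2.29%) and with size factors (2.41%). These scalings moved Itgam in lung at 14 days under and Itgb1 over 1.5-fold (0.65 with size factors), at the same count of 5. Of the 3 alternatives added after seeing the data, leaving out cells with 2 or more ILC1 markers gave 1 in blood at 14 days (3.61% of all genes), leaving out cells with a Pmepa1 UMI gave 2 in lung at 14 days (10.6% of all genes) and 0 in lung over blood at 14 days (5.53%) and in the naive library (9.28%), and ratios relative to genes of like span gave 3 in lung (9.89%) and 1 in blood (1.5%) at 14 days and 0 in naive lung over blood (9.46%). The count of 0 at 6 h and at 6 h between tissues was the same in all 14. No paired analysis was possible between time points because each of them is 1 library. Lung over blood in 1 fit, also added after seeing the data, called 2 members with the library as replicate block (24.2% of all genes). It called 0 without the block (11.4%) and 0 to 7 without 1 library. These were 0 without the naive library (4.15% of all genes), 0 without the 6 h library (4.09%) and 7 without the 14-day library (61%). Depth limits Itgae, whose ratios at 14 days have intervals that include 0, and Itga1 before 14 days, and with 1 library per time point no spread between mice is known.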
